A study of Mus musculus with 5 samples.

Results

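The genes described here are S100 calcium-binding proteins, annexin A2 and cytoskeletal or membrane proteins whose transcripts are known to rise when CD8 T cells become effectors. They were chosen by name from a list of 9 (S100a4, S100a6, S100a10, S100a11, Anxa2, Lgals1, Crip1, Ahnak and Vim), and 8 of them were found among the 11564 genes of the deposited table. S100a4 is not analysed here. All 8 passed the filter on low values (a normalized count of at least 10 in at least 2 libraries), which 11534 genes passed.

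The study sequenced RNA of CD8 T cells sorted from mice: 3 libraries labelled PHD2-deltaT, described by the labels as a PHD2 knockout, and 2 libraries labelled WT. PHD2, encoded by Egln1, is the oxygen-dependent hydroxylase that marks HIF transcription factors for degradation. The labels give no strain, age, treatment, deletion strategy or stimulation for either group, and do not state if each library is from an animal of its own. The p-values here reflect the spread among these libraries alone, and that spread may be technical. Normalized counts summed to between 19593220 and 20253007 per library, and the read numbers behind them are unknown.

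The targeted gene went against the label. Egln1 had 5447, 4327 and 4993 normalized counts in the libraries labelled PHD2-deltaT, against 1927 and 2182 in WT. A gene-level count does not separate deleted from kept exons, so it checks nothing about the deletion, and all directions below refer to libraries by their label. The label of the cell type was carried by the markers: all 8 CD8 T cell markers looked up, Cd8a, Cd8b1 and the CD3 chains among them, were in the table, and their summed normalized counts were 79230 to 81242 in the libraries labelled PHD2-deltaT and 79081 to 84601 in WT. No library stood apart over all genes tested, since the median absolute log2 difference between any pair of libraries lay between 0.117 and 0.159.

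S100 proteins are small EF-hand proteins that mostly change shape on binding calcium and then grip partner proteins. Annexins bind acidic membrane phospholipids in the presence of calcium. The families meet in the annexin A2 and S100A10 complex, a heterotetramer that ties the inner face of the plasma membrane to cortical actin and is bound by the giant scaffold protein AHNAK. These transcripts are known to be more abundant in effector and memory than in naive CD8 T cells, together with those of vimentin and galectin 1.

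The promoters of 4 of the genes are shown first, from RefSeq on GRCm38.p6, because PHD2 acts on HIF and because 3 of these genes rose (Anxa2, S100a6 and Vim) while S100a11 did not pass the test. Each runs from 250 bases before to 50 bases after the RefSeq start site, 5′ to 3′ on the plus strand, and capitals mark the HIF core ACGTG and the AP-1 motif TGANTCA on either strand. They lie at chr9:69453433-69453732 (Anxa2), chr3:90612644-90612943 (S100a6), chr2:13574061-13574360 (Vim) and chr3:93520246-93520545 (S100a11).
Anxa2: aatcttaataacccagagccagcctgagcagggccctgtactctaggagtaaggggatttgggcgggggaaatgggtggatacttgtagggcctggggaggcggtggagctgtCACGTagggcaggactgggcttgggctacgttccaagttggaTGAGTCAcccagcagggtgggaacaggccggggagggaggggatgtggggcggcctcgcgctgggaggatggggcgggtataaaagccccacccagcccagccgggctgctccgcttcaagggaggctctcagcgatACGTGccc
S100a6: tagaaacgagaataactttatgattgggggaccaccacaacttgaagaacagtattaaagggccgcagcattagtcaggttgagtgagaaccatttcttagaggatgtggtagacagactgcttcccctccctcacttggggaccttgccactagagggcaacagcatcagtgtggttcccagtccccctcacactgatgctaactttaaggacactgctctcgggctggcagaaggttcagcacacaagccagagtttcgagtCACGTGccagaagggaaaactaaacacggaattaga
Vim: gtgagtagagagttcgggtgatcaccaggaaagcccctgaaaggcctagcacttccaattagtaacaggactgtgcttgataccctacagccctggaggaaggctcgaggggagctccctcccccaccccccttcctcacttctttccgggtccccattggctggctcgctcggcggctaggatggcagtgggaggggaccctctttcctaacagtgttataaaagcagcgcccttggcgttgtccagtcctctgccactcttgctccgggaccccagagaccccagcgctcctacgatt
S100a11: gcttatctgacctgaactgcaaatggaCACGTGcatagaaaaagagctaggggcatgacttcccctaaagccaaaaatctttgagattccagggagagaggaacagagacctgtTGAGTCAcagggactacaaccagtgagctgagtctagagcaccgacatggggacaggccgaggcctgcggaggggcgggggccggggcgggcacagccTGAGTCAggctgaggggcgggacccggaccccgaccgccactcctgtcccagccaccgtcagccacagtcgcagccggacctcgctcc

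RefSeq promoters matched 7 of the 9 symbols, 6 of them with values here (Anxa2, S100a6, S100a11, Vim, Crip1 and Ahnak). The HIF core ACGTG was found in 3 of these 6, Anxa2, S100a6 and S100a11, and in 19.6% of all 32851 promoters of that length. In Anxa2 it lay 137 bases upstream of the start site and again at base 43 of the transcript, and in S100a6 at base 15 of the transcript, where CACGTG holds the core on both strands. S100a11 also carried CACGTG, 223 bases upstream, so the core was present in a promoter whose gene did not pass the test, and absent from that of Vim, which rose. The other core searched, GCGTG, was in none of the 6 and in 32.4% of all promoters. With both cores counted, 3 of the 6 held a match, as did 43.8% of all promoters. TGANTCA, a palindrome that matches both strands at once, was at 1 place in Anxa2 and 2 in S100a11, and in 7.81% of all promoters. The GC box GGGCGG was in Anxa2, S100a11, Crip1 and Ahnak and in 35.7% of all promoters, and TATAAA in Anxa2 and Vim and in 13.6%. These are matches of letters in a short window and not sites of binding.

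Of the 8 genes, 4 rose in the libraries labelled PHD2-deltaT (Anxa2, S100a6, Vim and Lgals1), 0 fell and 4 did not pass the test (S100a10, S100a11, Ahnak and Crip1). The test was limma with a mean-variance trend on log2(normalized count + 1), a scale that understates the change of low genes, with Benjamini-Hochberg adjustment over all genes tested and a threshold of 0.05. By that rule 4% of all genes tested were called, 2.97% higher and 1.02% lower. The median log2 fold change of the 8 genes was 0.34, against -0.01 over all genes tested.

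Anxa2 (ENSMUSG00000032231; mm10 chromosome 9, 69453620 to 69491795, plus strand, 15 exon blocks) changed most. It had 1363, 1178 and 1139 normalized counts in the libraries labelled PHD2-deltaT, against 379.5 and 459.7 in WT, so the lowest library labelled PHD2-deltaT was 679.6 above the highest WT library. It averaged 1227 ± 119.5 in the libraries labelled PHD2-deltaT (SD, n = 3) and 419.6 ± 56.7 in WT (SD, n = 2). The fold was 2.92 (95% confidence interval 2.51 to 3.41; log2 fold change 1.55 ± 0.10 SE; limma-trend adjusted p = 1.11e-07). An antisense gene, Gm16144, overlaps 2.63% of its exon bases, and strand use in counting is not stated.

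S100a10, the partner subunit that holds the annexin A2 tetramer together and that, unlike most S100 proteins, does not need calcium to do so, did not follow. It had 3616, 3389 and 3809 normalized counts in the libraries labelled PHD2-deltaT, against 3714 and 3651 in WT, and both WT values lay inside the range of the others. Its log2 fold change was -0.03, with a 95% confidence interval of -0.19 to 0.12 (limma-trend adjusted p = 0.906). The interval leaves out a change as large as that of Anxa2.

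The within-library ratio of the 2 transcripts, which does not depend on how libraries were scaled, was read as well. Per kilobase of exon, Anxa2 stood at 0.122, 0.113 and 0.0972 of the level of S100a10 in the libraries labelled PHD2-deltaT, against 0.0332 and 0.0409 in WT. On the log2 scale the mean ratio of normalized counts differed by 1.58 between the groups (two-sided exact permutation p = 0.1, the smallest that 3 libraries against 2 allow, and 0.1 when adjusted over the 3 ratios computed). The 3 ratios were chosen after the values had been seen, each setting a gene that rose over one not called. Their p-values therefore add no support to the calls.

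S100a11, known as a partner of annexin A1, had 919.6, 873.5 and 782.9 normalized counts in the libraries labelled PHD2-deltaT, against 980.5 and 872.9 in WT. The groups overlapped, and the log2 fold change was -0.11 (95% confidence interval -0.31 to 0.09; limma-trend adjusted p = 0.686). Of the 50-base stretches in its transcripts, 41.1% occur word for word in transcripts of the predicted genes Gm12854, Gm7665 and Gm29240, so its count is less certain than the others. S100a10 lies 28792 bases from S100a11 on chromosome 3.

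S100a6, or calcyclin, which binds several annexins and the ubiquitin-pathway protein CACYBP, was the S100 gene that rose. It had 117, 98.3 and 64.9 normalized counts in the libraries labelled PHD2-deltaT, against 43.3 and 31.7 in WT. The groups did not overlap, but the spread was wide, with a coefficient of variation of 28.1% among the libraries labelled PHD2-deltaT and 21.8% in WT. The fold was 2.41 (95% confidence interval 1.64 to 3.53; log2 fold change 1.27 ± 0.26 SE; limma-trend adjusted p = 0.00852). S100a6 (mm10 chromosome 3, 90612882 to 90624181, plus strand) lies 2.90 Mb from S100a11, in another block of S100 genes.

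Within a library, S100a6 per kilobase of exon was 0.0474, 0.0421 and 0.0310 of the level of S100a11 in the libraries labelled PHD2-deltaT, against 0.0165 and 0.0136 in WT. The log2 ratio of their normalized counts differed by 1.40 (two-sided exact permutation p = 0.1, again the smallest possible, and 0.1 adjusted over the 3 ratios). This pair too was chosen after the values had been seen, so its p adds no support.

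**Figure D1:**
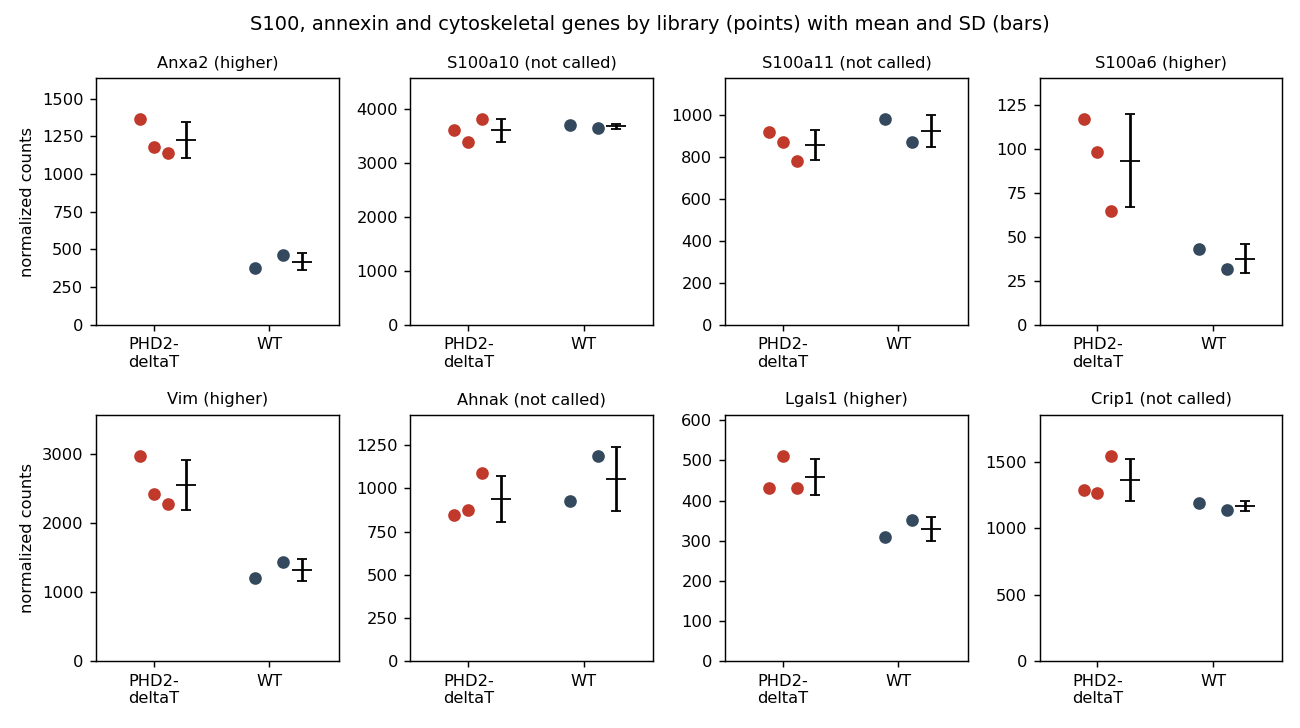
Normalized counts (vertical axes, from 0) of the 8 genes in the 3 libraries labelled PHD2-deltaT (left, red) and the 2 WT libraries (right, dark), with the group mean and SD as bars. Anxa2, S100a6, Vim, Lgals1 and Crip1 have every library labelled PHD2-deltaT above both WT libraries, Crip1 without passing the test, and S100a10, S100a11 and Ahnak overlap.

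Vim encodes vimentin, the intermediate filament protein that stiffens lymphocytes and collapses to one pole when they migrate. It had 2970, 2424 and 2285 normalized counts in the libraries labelled PHD2-deltaT, against 1207 and 1441 in WT. Each of the 3 exceeded both WT values, with averages of 2559 ± 362 in the libraries labelled PHD2-deltaT (SD, n = 3) and 1324 ± 165 in WT (SD, n = 2). The fold was 1.93 (95% confidence interval 1.65 to 2.25; log2 fold change 0.95 ± 0.10 SE; limma-trend adjusted p = 2.72e-05).

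Ahnak, the scaffold that binds the annexin A2 and S100A10 complex and that in mouse T cells is known to support calcium entry, did not pass. It had 845.1, 875.6 and 1090.4 normalized counts in the libraries labelled PHD2-deltaT, against 924.1 and 1185 in WT. The ranges overlapped (log2 fold change -0.17, 95% confidence interval -0.42 to 0.08; limma-trend adjusted p = 0.586).

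Lgals1 encodes galectin 1, a secreted lectin that binds beta-galactosides on T cell glycoproteins. It had 432.4, 510.8 and 432.4 normalized counts in the libraries labelled PHD2-deltaT, against 309.1 and 351.7 in WT. The groups did not overlap, and the fold was 1.39 (95% confidence interval 1.17 to 1.64; log2 fold change 0.47 ± 0.12 SE; limma-trend adjusted p = 0.0281).

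Crip1, a short LIM-domain protein, had 1286, 1266 and 1544 normalized counts in the libraries labelled PHD2-deltaT, against 1194 and 1142 in WT. The groups did not overlap, yet the log2 fold change of 0.22 (95% confidence interval 0.02 to 0.41) did not pass (limma-trend adjusted p = 0.256). With Crip1, 5 of the 8 genes had every library labelled PHD2-deltaT above both WT libraries and 0 had every one below, where 16% of all genes tested were separated upward and 14.5% downward.

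Library by library some of the genes varied together within a genotype and others did not. Among the libraries labelled PHD2-deltaT, replicate 1 had the highest values of Anxa2, S100a6, S100a11 and Vim, and replicate 3 the lowest. Replicate 3 had the highest values of S100a10, Crip1 and Ahnak. Between the WT libraries, replicate 2 was the higher for Anxa2, Vim, Lgals1 and Ahnak, and replicate 1 for S100a6, S100a10, S100a11 and Crip1. Replicate numbers are names only.

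Levels were compared between genes per kilobase of exon, the length being that of all annotated exons of a gene merged. A level is understated where some of these exons are not used. The merged exons of Crip1, for one, begin at base 113146316 of chromosome 12, before its RefSeq promoter at 113151762 to 113152061. S100a10 was the most abundant transcript of the set, with 2974 ± 173 normalized counts per kilobase (SD, n = 3) in the libraries labelled PHD2-deltaT and 3038 ± 36.6 (SD, n = 2) in WT. S100a11 came next, with 1680.4 ± 136 normalized counts per kilobase in the libraries labelled PHD2-deltaT and 1813 ± 149 in WT. At the other end, S100a6 had 68.2 ± 19.2 normalized counts per kilobase in the libraries labelled PHD2-deltaT and 27.4 ± 5.99 in WT. By this measure the pair of S100 genes that did not pass were the most abundant of the 8, in either genotype. The S100 gene that rose was among the least abundant. The count of S100a11 is less certain, since 41.1% of its 50-base stretches are shared.

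The order of levels per kilobase in WT was S100a10, S100a11, Crip1, Lgals1, Vim, Anxa2, Ahnak and S100a6. The 2 WT values of each gene were apart from those of its neighbours, a spread that leaves out any error in exon length. In the libraries labelled PHD2-deltaT the first 3 were the same. After them Vim, at 539.6 ± 76.3 normalized counts per kilobase in the libraries labelled PHD2-deltaT and 279 ± 34.8 in WT, stood above Lgals1, at 508 ± 50.1 normalized counts per kilobase in the libraries labelled PHD2-deltaT and 366 ± 33.4 in WT. There the ranges of Crip1, Vim and Lgals1 overlapped as neighbours, so their order is not fixed by these libraries. S100a6 stood above Ahnak in the libraries labelled PHD2-deltaT and below it in WT, and in the libraries labelled PHD2-deltaT their ranges overlapped.

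**Figure D2:**
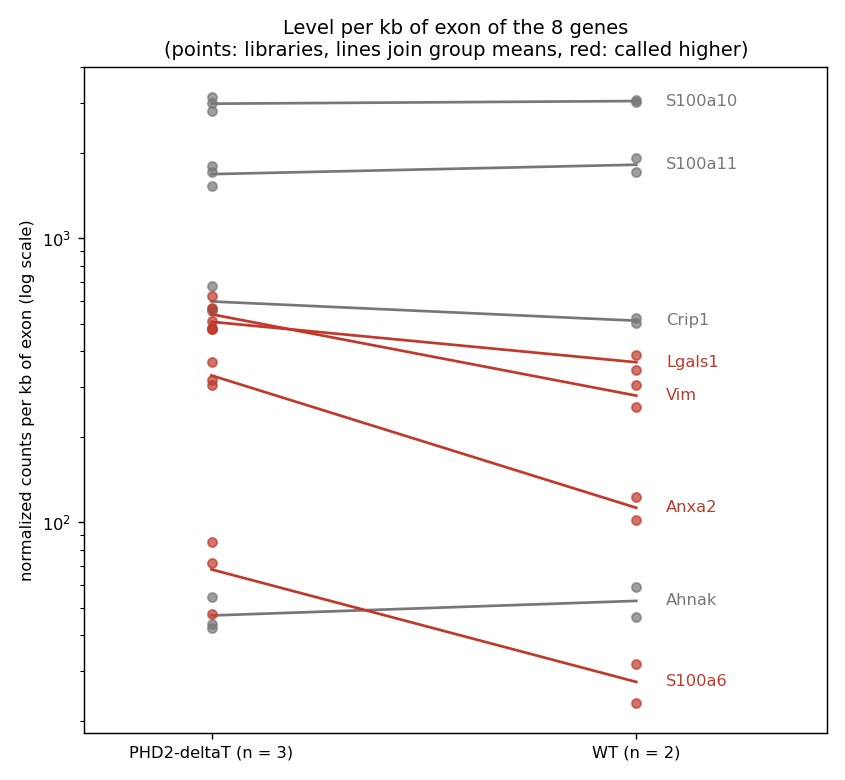
Normalized counts per kilobase of exon (vertical axis, log scale) of the 8 genes in the libraries labelled PHD2-deltaT (left) and WT (right), with points for libraries, lines joining the group means, and red for genes called higher. Anxa2, Vim, S100a6 and Lgals1 slope down towards WT, and S100a10 and S100a11 stay at the top on both sides.

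Vimentin was also set against a filament of another kind. In normalized counts per kilobase of exon, Vim was 0.0298, 0.0209 and 0.0207 of the level of Actb, the beta-actin gene, in the libraries labelled PHD2-deltaT, against 0.00994 and 0.0135 in WT. The log2 ratio of normalized counts differed by 1.02 (two-sided exact permutation p = 0.1, the smallest possible, and 0.1 adjusted over the 3 ratios). Vim and Actb were likewise paired after the values had been seen, so the p adds no support.

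Relatives of these genes were read in the same fit. Of 2 other S100 genes tested, 0 passed: S100a13, a co-factor of growth factor release, had 589, 404 and 565 normalized counts in the libraries labelled PHD2-deltaT, against 482 and 438 in WT, and S100a1 lay under 30 in every library. Of 7 other annexins tested, 1 was higher and 0 lower, with a median log2 fold change of 0.22. Anxa6, a large annexin, had 7457, 6328 and 6626 normalized counts in the libraries labelled PHD2-deltaT, against 5706 and 5256 in WT (log2 fold change 0.31 ± 0.08 SE; limma-trend adjusted p = 0.0373). It was no longer called without PHD2-deltaT replicate 1 (limma-trend adjusted p = 0.126), without WT replicate 1 (0.0754), without WT replicate 2 (0.385) and when limma had no trend (0.303). Anxa4 (0.77), Anxa3 (0.52), Anxa11 (0.22), Anxa9 (0.13), Anxa7 (0.12) and Anxa5 (0.09), with their log2 fold changes, did not pass, and the signs of Anxa5 and Anxa9 turned in a fit that left out 1 library.

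Among 5 other galectins tested, 0 passed. Lgals9, the ligand of the inhibitory receptor TIM-3, had 2141, 1947 and 1928 normalized counts in the libraries labelled PHD2-deltaT, against 1772 and 1661 in WT, without overlap (log2 fold change 0.22; limma-trend adjusted p = 0.143). Lgals3 had 211, 111 and 179.7 normalized counts in the libraries labelled PHD2-deltaT, against 127 and 124 in WT. Its log2 fold change of 0.36 did not pass, and without PHD2-deltaT replicate 2 it was 0.63 and did (limma-trend adjusted p = 0.0373). The log2 fold changes of Lgals8 (0.07), Lgalsl (0.09) and Lgals4 (-0.72) did not pass either.

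**Figure D3:**
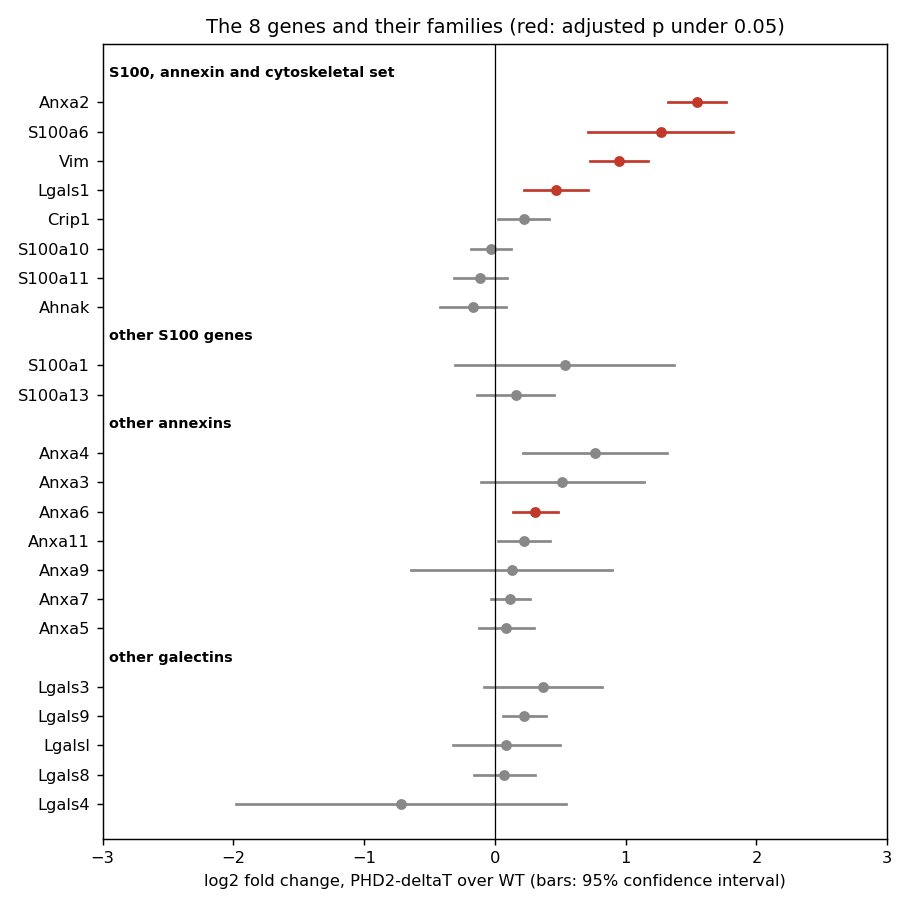
Log2 fold changes of the libraries labelled PHD2-deltaT over WT (horizontal axis) with 95% confidence intervals, for the 8 genes and for the other S100, annexin and galectin genes tested, in red where the adjusted p was under 0.05. Besides Anxa2, S100a6, Vim and Lgals1, the red gene is Anxa6, and the widest intervals belong to genes of low value such as Lgals4 and Anxa9.

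Over the lists of partner proteins, actin cytoskeleton, intermediate filaments, LIM-domain proteins and microtubules, 3 of 77 genes passed the test, or 3.90%, close to the 4% of all genes tested. Of 6 S100 and annexin partner genes tested, 0 passed and the median log2 fold change was -0.16. Myh9, the non-muscle myosin heavy chain that S100A4 binds, had 20304, 19236 and 22999 normalized counts in the libraries labelled PHD2-deltaT, against 24115 and 24100.2 in WT (log2 fold change -0.21; limma-trend adjusted p = 0.208). Ppfibp1 (-0.43), Iqgap1 (-0.14) and Cacybp (-0.11), with their log2 fold changes, did not pass.

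Of 37 actin cytoskeleton genes tested, 0 were called by limma-trend, with a median log2 fold change of -0.03. Among the smallest p-values were those of the filamin Flna (-0.22), the tropomyosin Tpm1 (-0.28) and the membrane-actin linker Ezr (0.20), given with their log2 fold changes. Of 5 other intermediate filament genes tested, 0 passed, with log2 fold changes of 0.17 for Lmnb2, -0.44 for Des, -0.14 for Plec and 0.28 for Lmna. At an unadjusted limma-trend p under 0.05 there were 5 of the 8 genes of the set, 3 other annexins, 1 of the other galectins, 0 other S100 genes and 2 partner genes. There were 5 actin cytoskeleton genes, 0 intermediate filament genes, 4 LIM-domain genes, 3 microtubule genes, 12 effector differentiation genes and 9 naive-associated genes at that level, which 15% of all genes tested reached.

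Of 17 other LIM-domain genes tested, Csrp1, an actin-bundling LIM protein, was the 1 called higher, and 0 were lower. It had 2116, 2173 and 2140 normalized counts in the libraries labelled PHD2-deltaT, against 1718 and 1579 in WT (log2 fold change 0.38 ± 0.07 SE; limma-trend adjusted p = 0.0055). It was no longer called without WT replicate 2 (limma-trend adjusted p = 0.129) or when limma had no trend (0.133). Lims1 (-0.27), Lpp (-0.45) and Tes (0.21) did not pass on the log2 scale, and Lpp did without PHD2-deltaT replicate 2 (limma-trend adjusted p = 0.0301).

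Of 12 microtubule genes (tubulins and Stmn1), 1 rose and 1 fell. Tubb6 had 569.6, 614 and 728 normalized counts in the libraries labelled PHD2-deltaT, against 480.2 and 400.3 in WT (log2 fold change 0.53; limma-trend adjusted p = 0.0135), a call lost when WT replicate 2 was left out (0.239) and in limma without the trend (0.227). Tubb3, the tubulin known from neurons, had 11.8, 10.1 and 24.0 normalized counts in the libraries labelled PHD2-deltaT, against 73.5 and 71.3 in WT (log2 fold change -2.27; limma-trend adjusted p = 0.00117). It lies on chromosome 8, as Egln1 does, and any part of that position in its change was not tested. Tubb3 was not called by limma without the trend (adjusted p = 0.0835). Tubb2a (-0.23) and Tubb2b (-0.36) did not pass on the log2 scale.

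The set was read beside differentiation genes of the same cells. Of 23 effector differentiation genes tested, 9 were higher and 0 lower, or 39.1%, against 4% of all genes tested, and 14 did not pass. The list named 26 genes, of which Klrg1, Cx3cr1 and Ifitm1 were not analysed here. Without PHD2-deltaT replicate 3 the calls were 8 higher and 1 lower, of 22 tested. This list, like the set, was chosen with earlier results of these data known. Its median log2 fold change was 0.28, with 19 values positive and 4 negative, down to -0.36. Named here are the 4 with the smallest p, given with log2 fold changes. They are the cytokine Ifng (1.24), the transcription factors Bhlhe40 (1.10) and Tbx21 (0.79) and the surface protein Ly6c2 (0.52). Exons of Ifng share 25.9% of their bases with another gene. Of 18 naive-associated genes tested, 2 were higher and 3 lower, or 27.8%, with a median of 0.04. Bach2 (-0.43), the integrin Itgae (-0.63) and the co-stimulatory receptor Cd28 (-0.47) fell on the log2 scale, and Ly6c1, at 87.3, 77.0 and 72.9 normalized counts in the libraries labelled PHD2-deltaT against 21.1 and 27.7 in WT, rose. The effector list had 3 calls and the naive list 1 in limma without the trend, and the naive list 2 without WT replicate 2, where Itgae (limma-trend adjusted p = 0.0533) and Cd28 (0.214) did not pass.

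**Figure D4:**
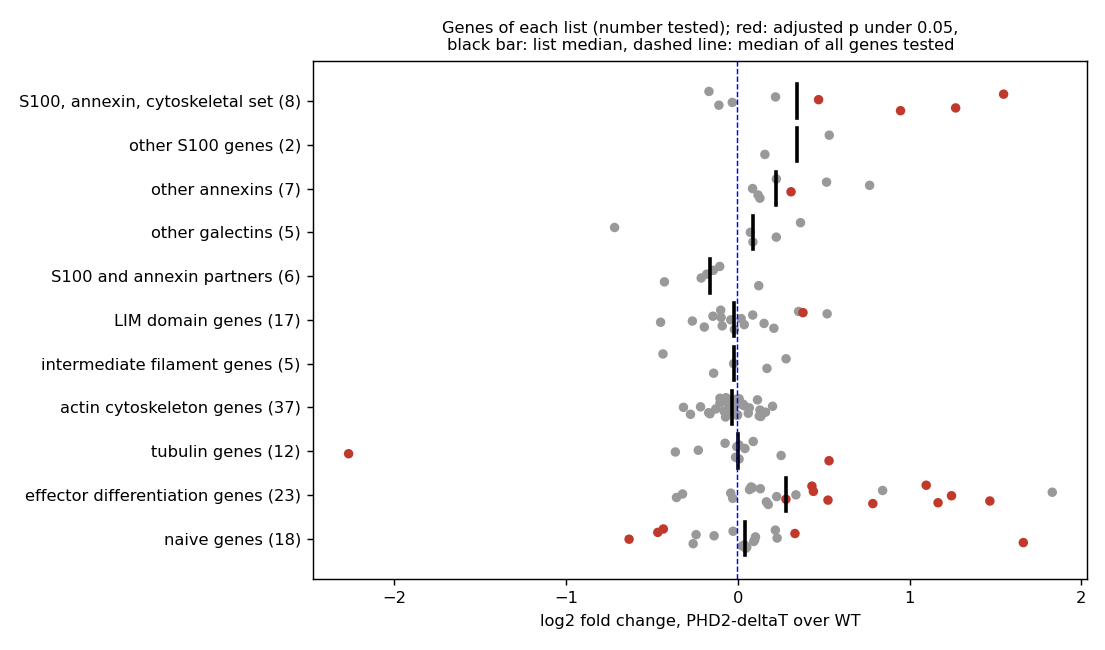
Log2 fold change of the libraries labelled PHD2-deltaT over WT (horizontal axis) for each gene of each list (rows, with the number tested), in red where the adjusted p was under 0.05, with the list median as a black bar and the median of all genes as a dashed line. The actin cytoskeleton genes lie close to their median of -0.03, the highest at 0.20, and the effector list, the naive list (through Ly6c1, at 1.66) and the S100 and annexin set reach further to the right.

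The genes whose values followed the middle of the set most closely were Mafg, Keap1, Wfikkn2, Med31, Gtf3c5 and Sipa1l2. The measure was the largest deviation, over the 5 libraries, between a gene's centred log2 values and the median of the centred log2 values of the 8 genes, and it was between 0.0364 and 0.0565. Keap1 had 1316, 1395 and 1360.04 normalized counts in the libraries labelled PHD2-deltaT, against 1084 and 1103 in WT, and Mafg had 1281, 1309 and 1263 normalized counts in the libraries labelled PHD2-deltaT, against 1012 and 1065 in WT. With 5 libraries many genes can come this close.

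The calls among the 8 genes differed in how far they rested on 1 library or on the variance model. Anxa2 was called under all 14 alternatives, with adjusted p from 1.96e-09 to 0.0304 in limma and log2 fold changes from 1.41 to 1.69 when 1 library was left out. Vim was called in 13 of 14 (limma adjusted p from 1.77e-06 to 0.0828), the exception being limma without the trend. S100a6 was called in 12 of 14 (limma adjusted p from 0.00129 to 0.160) and was lost in limma without the trend and when WT replicate 2 was left out (0.107). Lgals1 was called in 10 of 14 (limma adjusted p from 0.0203 to 0.238) and was lost without PHD2-deltaT replicate 2 (0.0812), without WT replicate 1 (0.238), without WT replicate 2 (0.0577) and when limma had no trend (0.194). S100a10, S100a11, Ahnak and Crip1 were called under none of the 14. The number of the 8 genes called was 2 when WT replicate 2 was left out, where 244 of all genes tested were called. It was 1 in limma without the trend, where 96 were called, and 461 were called as reported.

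**Figure D5:**
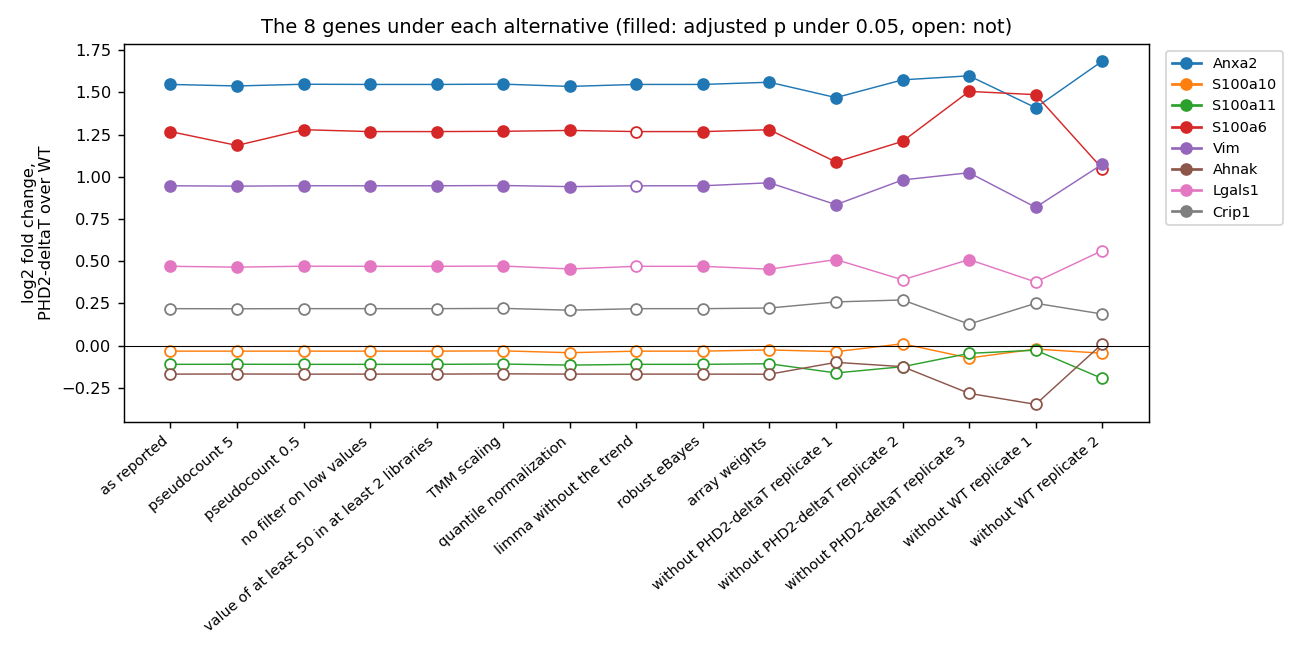
Log2 fold change of the libraries labelled PHD2-deltaT over WT (vertical axis) of the 8 genes as reported and under each of 14 alternatives (horizontal axis), filled where the adjusted p was under 0.05 and open where it was not. Anxa2 is filled throughout and stays between 1.41 and 1.69, and S100a10, S100a11, Ahnak and Crip1 are open throughout.

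In the authors' deposited table, whose fold changes run WT over PHD2-deltaT, the log2 fold changes were -1.27 for Anxa2 (FDR 1.75e-33), -0.80 for Vim (FDR 8.50e-14), -0.50 for S100a6 (FDR 0.00448) and -0.37 for Lgals1 (FDR 0.0267). These 4 genes were lower in WT there too, but each change was smaller in size than in the limma-trend fit. For Anxa2 and S100a6 the size fell below the confidence interval of that fit. On the log2 scale, PHD2-deltaT over WT, these intervals were 1.33 to 1.77 for Anxa2 and 0.71 to 1.82 for S100a6. The sizes for Vim and Lgals1 lay inside their intervals. The cause of the difference was not tested. In the authors' deposited table the FDR of Crip1, Ahnak, S100a11 and S100a10 was between 0.348 and 0.976. The authors' deposited selection of 151 genes held Anxa2, Vim and S100a6.

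Several of these transcripts are also abundant in myeloid and stromal cells, and markers of other cells were read beside them. Of 10 myeloid markers, Cd68 and Fcgr3 were in the table, with summed normalized counts of 100.3 to 109.8 in the libraries labelled PHD2-deltaT and 105 to 135 in WT, and the others, Lyz2 and Csf1r among them, were not analysed here. Of 9 stromal and endothelial markers Pecam1 was in the table, at 1859 to 2377 normalized counts in the libraries labelled PHD2-deltaT and 1936 to 1958 in WT. The 3 dendritic cell markers in the table of 7, Itgax, Batf3 and Xcr1, summed to 108.8 to 146 normalized counts in the libraries labelled PHD2-deltaT and 51.3 to 72.3 in WT. The others of that list, Flt3, Clec9a, Siglech and Cd209a, were not analysed here. Itgax and Batf3 passed the same test as the set. Itgax had 82.4, 98.3 and 81.9 normalized counts in the libraries labelled PHD2-deltaT, against 39.3 and 43.6 in WT (log2 fold change 1.06; limma-trend adjusted p = 0.00752), and was not called without WT replicate 1 (0.0585). Batf3 had 18.6, 30.4 and 41.9 normalized counts in the libraries labelled PHD2-deltaT, against 4.03 and 10.9 in WT (log2 fold change 1.95; limma-trend adjusted p = 0.0275). Its call was lost without PHD2-deltaT replicate 2 (0.0725), without PHD2-deltaT replicate 3 (0.124), without WT replicate 1 (0.213) and when limma had no trend (0.197). Xcr1 overlapped between the groups and did not pass (limma-trend adjusted p = 0.989). For 3 of 6 natural killer markers the sums were 138 to 169 in the libraries labelled PHD2-deltaT and 97.1 to 126 in WT, and for 3 of 4 CD4 T cell markers, Cd4 not among them, 92.9 to 108.8 in the libraries labelled PHD2-deltaT and 65.4 to 66.4 in WT. B cell markers (3 of 8) summed to 5179 to 5950 in the libraries labelled PHD2-deltaT and 5711 to 6192 in WT, and gamma delta T cell markers (2 of 6) to 71.9 to 113.5 in the libraries labelled PHD2-deltaT and 74.3 to 77.5 in WT. Of 6 erythroid and 5 platelet markers 0 were in the table. The 7 mitochondrially encoded genes in the table of 13 took 0.345% to 0.437% of normalized counts in the libraries labelled PHD2-deltaT and 0.504% to 0.649% in WT. Of these 7 genes 6 were called lower by limma-trend, with a median log2 fold change of -0.52 over the 7, and the number called was 0 when WT replicate 2 was left out, 0 in limma without the trend and 2 with robust eBayes. Among the CD8 T cell markers, Cd2 was called higher (log2 fold change 0.39; limma-trend adjusted p = 0.00524), though not without WT replicate 2 (0.0929) or when limma had no trend (0.174). No other marker was called. The part of these markers in the changes of Anxa2, Vim, S100a6 and Lgals1 was not tested. In bulk RNA, fewer cells of a type and less RNA per cell cannot be told apart.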

How the data were processed

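The members and gene lists were chosen with earlier results of these data known. The submitters' processing notes name mm10 as the build, HTSeq 0.9.1, STAR 2.5.3 and Trimmomatic 0.36; strand use in counting, the scaling step and the tool of the authors' comparison are not stated. Per gene and library the authors deposited a normalized count signal, beside adjusted p-values, log2 fold changes and log2 means. All values of a library were whole multiples of 1 step (tolerance 1e-06), and these whole numbers summed to 19982939 to 19985825, so the reads behind them are unknown and no counting interval is given. Spreadsheet damage had turned 17 gene names into dates, which were restored from gene IDs.

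Using R 4.3.3 and limma 3.58.1, a model with genotype alone was fitted to log2(value + 1) of the 5 libraries, with a mean-variance trend (3 residual and 12.8 prior degrees of freedom). It was run on 3 simulated data sets with the same negative binomial dispersion, 0.0056, for all genes. Only genes with a mean of at least 50 were changed there. That run does not cover genes of lower value or wider spread. Tests were two-sided. GENCODE M21 (GRCm38, the mm10 build) gave positions, exon lengths and overlaps, and shared 50-base stretches from its transcripts. Promoters came from RefSeq. Tables and figures were made in Python 3.11.15 with scipy 1.17.1, pandas 2.3.3 and matplotlib 3.10.9. Named were the 8 genes, every tested S100, annexin and galectin gene, and the 4 smallest p-values of each other list, of which 1 gene is not reported here. Replicates are numbered in the order of the labels, which give no numbers. Alternatives changed the pseudocount (5, 0.5), the filter (none, 50), the scaling (TMM, quantile), the variance model (no trend, robust) and library weights, or left out each library.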

Additional observations from a re-analysis of the deposited data

How the results depend on the processing

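The 3 libraries against 2 and the unknown read depth limit the precision of these values. In limma without the trend the number of calls was 1 of the 8 genes, 96 of all genes (76 higher and 20 lower), 0 other annexins, 0 LIM domain genes, 0 tubulin genes, 3 effector genes and 1 naive gene, against 4, 461, 1, 1, 2, 9 and 5 as reported. Leaving out each library gave between 2 and 4 of the 8 genes, 244 and 523 of all genes, 0 and 1 other annexins, 0 and 1 other galectins, 0 and 2 LIM domain genes, 0 and 1 actin cytoskeleton genes, 1 and 2 tubulin genes and 2 and 6 naive genes. Array weights called 1 actin cytoskeleton gene. Signs turned in 5 cases, none of a called gene. They were S100a10 (range -0.073 to 0.0112 over the fits without 1 library), Ahnak (-0.348 to 0.0106), Anxa5 (-0.0152 to 0.141), Anxa9 (-0.0652 to 0.35) and Lgalsl (-0.0188 to 0.178), all as log2 fold changes; the cause was not tested. Pseudocounts, filters, and TMM and quantile scaling moved no count of calls over 1.5 times, and robust eBayes only that of the mitochondrially encoded genes (2, against 6 as reported). A fit that leaves 1 WT library assumes that it varies like the others. No paired analysis was possible because the labels give no replicate numbers.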
